A study of Homo sapiens with 9 samples.

Results

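Genes that build gangliosides, add sialic acid or carry glycolipids were followed in A375 melanoma cells after knockdown of SPANX. They are the 10 genes whose symbols were matched in all 9 deposited files: UGCG, B4GALT5, B4GALT6, ST3GAL5, ST8SIA1, B4GALNT1, ST3GAL2, ST6GALNAC6, ST8SIA4 and GLTP, 10 of 13825 genes tested. ST8SIA4 and GLTP were chosen by their measured values, as large falls with SPANX KD 87 against EV that also differed from SPANX KD 86, so their values are a description with no test. The other 8 are treated as taken by their place in the pathway and are called genes taken by role. Earlier results of these data were known, and which values, if any, chose these 8 is not stated. Their p-values may thus draw on values that chose them. SPANX genes encode cancer-testis antigens, proteins of the male germ line that some tumours express, and A375 is an established human melanoma line. All 9 libraries came from A375 cells, with RNA taken at 7 days: 3 libraries of SPANX KD 86, 3 of SPANX KD 87, which are knockdowns by different constructs, and 3 of the EV control. Transcripts were read from their 3' ends (QuantSeq), and levels are normalised reads, which are reads rescaled to a common library size.

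Gangliosides are sialic acid-bearing glycosphingolipids of the outer plasma membrane. Their synthesis starts in the Golgi, where UGCG puts glucose on ceramide, B4GALT5 and B4GALT6 add galactose to give lactosylceramide, and ST3GAL5 adds the first sialic acid to give GM3. ST8SIA1 adds a further sialic acid to give GD3, a ganglioside for which melanoma is known, and B4GALNT1 extends the chain to GM2 and GD2. ST3GAL2 and ST6GALNAC6 sialylate the longer chains. ST8SIA4 instead polymerises sialic acid on proteins such as NCAM1, and GLTP moves glycolipids between membranes in the cytosol.

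SPANXC, a gene of the targeted family, averaged 59.7 ± 36.6 normalised reads in SPANX KD 86, 25.6 ± 7.82 in SPANX KD 87 and 353.6 ± 185 in EV libraries (SD, n = 3 each), and it fell with both constructs (limma adjusted p = 0.00372 and 0.00334). SPANXD stood at 0.969, 0.879 and 0 normalised reads in SPANX KD 86, at 5.26, 5.99 and 7.13 in SPANX KD 87 and at 102.2, 27.4 and 97.0 in EV libraries. Between SPANX KD 87 and SPANX KD 86 the log2 difference was -1.07 for SPANXC (adjusted p = 0.149; 0.0221 with the replicate block) and 2.20, the other way, for SPANXD (adjusted p = 0.0172). That of SPANXD did not pass with a pseudocount of 5 (log2 0.99, adjusted p = 0.123), without SPANX KD 86 replicate 3 (0.0517) or without SPANX KD 87 replicate 3 (0.0527). SPANX genes are near-identical copies, so reads could be split between them. The libraries held between 11310675 and 15563422 recovered reads. Of 6 melanocyte markers, 3 had values above 0, while MLANA, TYR and DCT were listed at 0. The sum of the other 3, MITF, SOX10 and PMEL, ran from 13580 to 20120 in SPANX KD 86, from 7823 to 12130 in SPANX KD 87 and from 2959 to 6523 in EV libraries. Here and in the sums below, 1 abundant marker can carry a sum, and single markers were not compared. All 5 fibroblast markers had values, with sums of 942.4 to 1294 in SPANX KD 86, 846 to 1052 in SPANX KD 87 and 394.6 to 451.2 in EV libraries. The 3 markers of an undifferentiated state summed to between 5736 and 7718 in SPANX KD 86, 9985 and 15450 in SPANX KD 87 and 6647 and 11220 in EV libraries. KRT14, the 1 keratinocyte marker of 2 above 0, ran from 50.4 to 116.2 in SPANX KD 86, from 307.5 to 552.8 in SPANX KD 87 and from 218.8 to 357.8 in EV libraries. The part of these marker shifts in the results that follow was not tested. The 4 leukocyte and 2 endothelial markers were listed at 0 in every library.

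The promoters of GLTP, ST8SIA4 and ST8SIA1 are printed because these 3 transcripts had the largest fold changes of the 10. Each window runs from 250 bases before to 50 bases after a start of the gene in RefSeq (GRCh38.p14), 5′ to 3′ on the minus strand, at chr12:109880492-109880791 for GLTP, chr5:100903233-100903532 for ST8SIA4 and chr12:22334658-22334957 for ST8SIA1. Capitals mark the GC box GGGCGG and the CCAAT box CCAAT, searched on both strands. The ST8SIA1 window lies inside the longer span that GENCODE gives this gene, not at that span's end. The GLTP window lies wholly outside the span that GENCODE gives GLTP, which ends at 109880488.
GLTP: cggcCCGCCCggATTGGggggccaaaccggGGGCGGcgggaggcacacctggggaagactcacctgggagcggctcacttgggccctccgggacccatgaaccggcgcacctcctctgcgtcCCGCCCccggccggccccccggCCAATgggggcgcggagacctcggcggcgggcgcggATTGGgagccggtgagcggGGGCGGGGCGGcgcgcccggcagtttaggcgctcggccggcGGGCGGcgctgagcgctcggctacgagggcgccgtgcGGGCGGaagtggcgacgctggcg
ST8SIA4: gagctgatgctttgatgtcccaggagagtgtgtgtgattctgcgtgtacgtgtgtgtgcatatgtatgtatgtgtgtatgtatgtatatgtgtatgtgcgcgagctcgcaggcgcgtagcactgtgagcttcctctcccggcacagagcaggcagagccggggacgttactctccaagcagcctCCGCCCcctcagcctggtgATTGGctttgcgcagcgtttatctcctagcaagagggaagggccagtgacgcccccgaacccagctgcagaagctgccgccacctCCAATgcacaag
ST8SIA1: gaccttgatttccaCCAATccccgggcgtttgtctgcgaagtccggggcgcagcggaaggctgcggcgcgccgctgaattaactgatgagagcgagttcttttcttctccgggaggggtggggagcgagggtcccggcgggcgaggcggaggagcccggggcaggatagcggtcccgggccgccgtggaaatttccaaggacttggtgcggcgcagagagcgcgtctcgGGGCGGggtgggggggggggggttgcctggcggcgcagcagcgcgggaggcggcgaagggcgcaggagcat
The GLTP window held 7 matches to the GC box, of which a pair overlap, and 3 to the CCAAT box. The ST8SIA4 window held 1 and 2, and the ST8SIA1 window 1 and 1. Of 35116 such windows, 45.0% held a GC box and 34.6% a CCAAT box. The TATA box TATAAA, the E-box CACGTG and the M-box CATGTG had 0 matches in the 3 windows, against 11.5%, 7.3% and 11.1% of all windows. GLTP was the richest of the 3 in G and C at 79.3%, ST8SIA1 stood at 70.3% and ST8SIA4 at 57.3%, and the median window at 58.7%. Of the 10 genes, 7 had an entry (not B4GALNT1, B4GALT6 and ST3GAL2). Only B4GALT5 among those 7 held an M-box, with 1 match.

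The first step of the pathway showed no change that passed the test. UGCG, the glucosylceramide synthase (ENSG00000148154.9, chr9:111896766-111935369, GRCh38), stood at 1683, 1366 and 1718 normalised reads in SPANX KD 86, at 1134, 1250 and 1669 in SPANX KD 87 and at 1735, 1155 and 1632 in EV libraries. The 3 groups overlapped. Its log2 fold change against EV was 0.09 with SPANX KD 86 (95% interval -0.40 to 0.58, limma adjusted p = 0.776) and -0.16 with SPANX KD 87 (-0.64 to 0.33, adjusted p = 0.687). With a trend by transcript length removed, the first of these became -0.16.

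The galactosyltransferases of lactosylceramide rose, B4GALT6 with both constructs and B4GALT5 with SPANX KD 86. In these bulk libraries, a change in the number of cells that express a gene and a change in RNA per cell cannot be told apart. B4GALT6 (ENSG00000118276.11, chr18:31622247-31685836) stood at 1055, 1042 and 1171 normalised reads in SPANX KD 86, at 729.3, 809.2 and 912.2 in SPANX KD 87 and at 303.4, 395.5 and 536.8 in EV libraries. Every knockdown library lay above every EV library, and SPANX KD 87 lay below SPANX KD 86. The rise was 2.71-fold with SPANX KD 86 (log2 1.44 ± 0.22 SE, limma adjusted p = 0.000965) and 2.03-fold with SPANX KD 87 (log2 1.02 ± 0.22 SE, adjusted p = 0.0174). Between the constructs, SPANX KD 87 minus SPANX KD 86 gave a log2 difference of -0.42 (95% interval -0.90 to 0.07, adjusted p = 0.19), which passed with the replicate number as a block (adjusted p = 0.0496). The rise of B4GALT6 with SPANX KD 87 did not pass when EV replicate 1 was left out (adjusted p = 0.0638), nor without SPANX KD 87 replicate 1 (adjusted p = 0.0547) or SPANX KD 87 replicate 2 (adjusted p = 0.0604).

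B4GALT5 (ENSG00000158470.5, chr20:49632945-49713878) stood at 1712, 1997 and 1507 normalised reads in SPANX KD 86, at 874.4, 1224 and 812.5 in SPANX KD 87 and at 746.7, 1152 and 690.9 in EV libraries. SPANX KD 86 lay above both other groups, which overlapped each other. It rose 2.05-fold with SPANX KD 86 (log2 1.04 ± 0.24 SE, limma adjusted p = 0.00832), and the log2 fold change with SPANX KD 87 was 0.18 (95% interval -0.36 to 0.72, adjusted p = 0.662). The difference itself, SPANX KD 87 minus SPANX KD 86, was -0.86 on the log2 scale and passed (adjusted p = 0.026). That call was lost without SPANX KD 86 replicate 1 or 2 (adjusted p = 0.0661 and 0.102) and without SPANX KD 87 replicate 1 or 3 (adjusted p = 0.0867 and 0.0905).

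**Figure D1:**
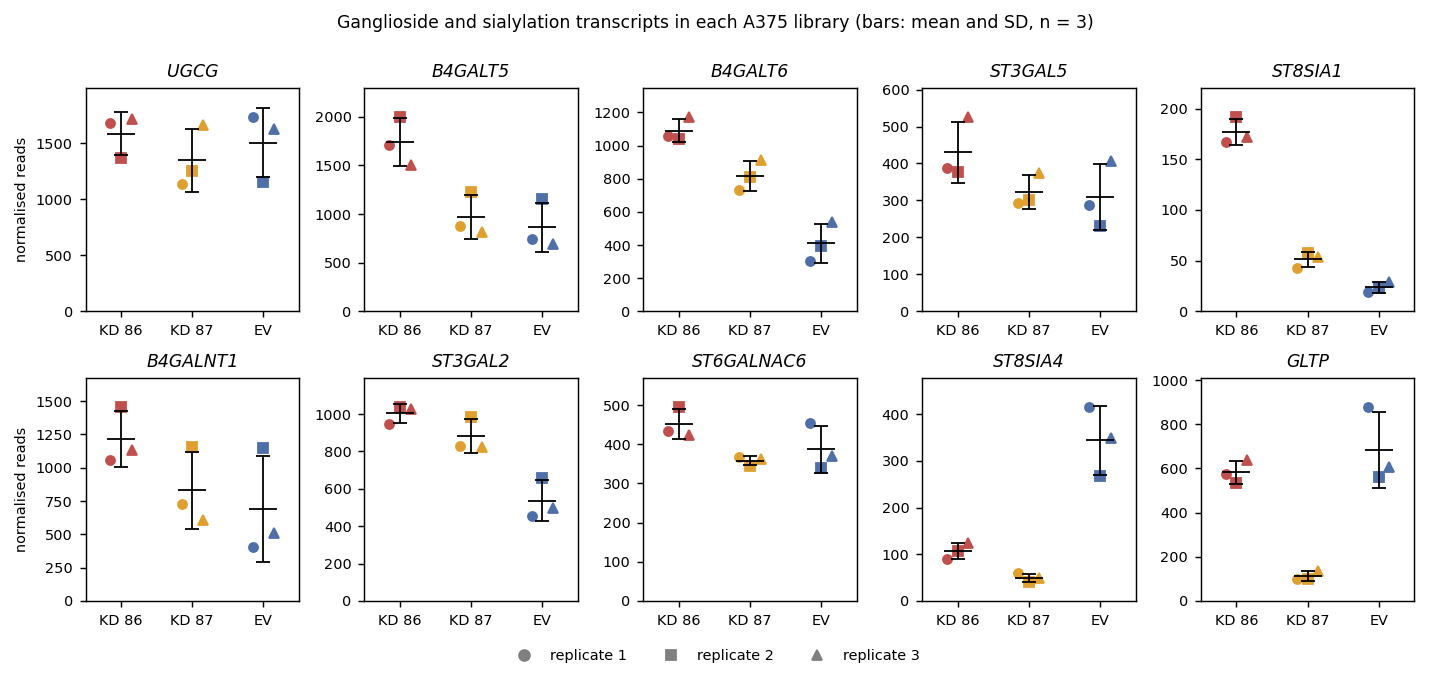
Normalised reads (vertical axes, from 0) of the 10 genes in the SPANX KD 86, SPANX KD 87 and EV libraries, ordered along the pathway, with symbols for the replicate number and bars for the mean and SD of 3 libraries. ST8SIA1 is highest in SPANX KD 86 (166.6 to 191.5), ST8SIA4 is low in both knockdown groups, and GLTP is low in SPANX KD 87 alone (99.84 to 137.4).

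Of the sialyltransferases that start the ganglioside chains, ST8SIA1 rose with both constructs and ST3GAL5 passed no test in the unblocked fit. ST8SIA1, the GD3 synthase (ENSG00000111728.10, chr12:22063773-22437041), stood at 166.6, 191.5 and 172.4 normalised reads in SPANX KD 86, at 43.1, 57.4 and 54.0 in SPANX KD 87 and at 18.9, 22.8 and 29.1 in EV libraries. The 3 groups did not overlap. It rose 7.32-fold with SPANX KD 86 (log2 2.87 ± 0.26 SE, limma adjusted p = 7.32e-05) and 2.15-fold with SPANX KD 87 (log2 1.10 ± 0.26 SE, adjusted p = 0.0246). The rise was smaller with SPANX KD 87, by a log2 difference of -1.77 from SPANX KD 86 (95% interval -2.34 to -1.19, adjusted p = 0.00102). ST8SIA1 rested on few reads, between 17 and 218 per library. With SPANX KD 87 its rise no longer passed when EV replicate 1 was left out (adjusted p = 0.0842), nor without SPANX KD 87 replicate 1, 2 or 3 (adjusted p = 0.057, 0.1 and 0.0558), while the other ST8SIA1 calls held in all 9 fits that left out 1 library. The SPANX KD 87 rise was also not called with only the 2 groups compared in the fit (adjusted p = 0.082).

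ST3GAL5, the GM3 synthase (ENSG00000115525.17, chr2:85837120-85905199), stood at 386.5, 377.7 and 525.3 normalised reads in SPANX KD 86, at 292.2, 300.5 and 374.7 in SPANX KD 87 and at 288.9, 231.1 and 406.4 in EV libraries. In each group replicate 3 was the highest, and SPANX KD 87 lay below SPANX KD 86 while both overlapped EV. Its log2 fold change was 0.50 with SPANX KD 86 (95% interval -0.05 to 1.04, limma adjusted p = 0.137) and 0.09 with SPANX KD 87 (-0.45 to 0.64, adjusted p = 0.838). With the replicate block the SPANX KD 86 change passed (adjusted p = 0.0199), and it also passed without EV replicate 3, at a log2 fold change of 0.72 (adjusted p = 0.0497).

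The enzymes that lengthen and cap the chains differed in how they moved. B4GALNT1, the GM2 and GD2 synthase (ENSG00000135454.13, chr12:57623410-57633355), stood at 1058, 1457 and 1130 normalised reads in SPANX KD 86, at 730.4, 1156 and 605.8 in SPANX KD 87 and at 407.8, 1149 and 513.1 in EV libraries. Replicate 2 was the highest of every group, and all groups overlapped. The log2 fold change was 0.95 with SPANX KD 86 (95% interval 0.14 to 1.76, limma adjusted p = 0.0656) and 0.36 with SPANX KD 87 (-0.45 to 1.18, adjusted p = 0.557). With the replicate block the SPANX KD 86 change passed (adjusted p = 0.00195), as did the log2 difference of -0.59 between SPANX KD 87 and SPANX KD 86 (adjusted p = 0.0312). Without EV replicate 2 the SPANX KD 86 change was 1.39 (adjusted p = 0.00295), and with the length trend removed it was 1.07 (adjusted p = 0.046).

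ST3GAL2, which sialylates the outer galactose of longer gangliosides (ENSG00000157350.12, chr16:70375978-70439237), stood at 945.3, 1039 and 1026 normalised reads in SPANX KD 86, at 831.3, 985.6 and 824.7 in SPANX KD 87 and at 452.3, 660.4 and 496.9 in EV libraries. Every knockdown library lay above every EV library, and the knockdown groups overlapped. It rose 1.89-fold with SPANX KD 86 (log2 0.92 ± 0.19 SE, limma adjusted p = 0.0043) and 1.66-fold with SPANX KD 87 (log2 0.73 ± 0.19 SE, adjusted p = 0.0357). The log2 difference between SPANX KD 87 and SPANX KD 86 was -0.19 (95% interval -0.61 to 0.23, adjusted p = 0.502). The SPANX KD 87 call was lost in 7 of the 9 fits without 1 library, those without EV replicate 1 (adjusted p = 0.123) or 3 (0.0835), SPANX KD 86 replicate 2 (0.0625) or 3 (0.0581) and SPANX KD 87 replicate 1 (0.106), 2 (0.139) or 3 (0.0563). It was also lost with the length trend removed (log2 0.51, adjusted p = 0.0557) and without a variance trend (0.0511). The same held with only the 2 groups compared in the fit (0.0878).

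ST6GALNAC6, which adds sialic acid to the inner part of ganglioside chains (ENSG00000160408.14, chr9:127885321-127905408), stood at 433.0, 495.4 and 424.4 normalised reads in SPANX KD 86, at 367.8, 345.1 and 361.4 in SPANX KD 87 and at 453.4, 338.0 and 369.7 in EV libraries. Both knockdown groups overlapped EV, and SPANX KD 87 lay below SPANX KD 86. Its log2 fold change was 0.23 with SPANX KD 86 (95% interval -0.17 to 0.63, limma adjusted p = 0.35) and -0.10 with SPANX KD 87 (-0.50 to 0.30, adjusted p = 0.756).

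Across the 8 genes taken by role, 4 rose and 0 fell with SPANX KD 86, where 35.6% of all 13825 genes tested passed, 18% upward and 17.6% downward. With SPANX KD 87, 3 of the 8 rose and 0 fell, against 10.4% of all genes passing, 5.92% upward and 4.43% downward. Between SPANX KD 87 and SPANX KD 86, 0 of the 8 were higher and 2 lower, against 25.5% of all genes passing, 12.7% upward and 12.9% downward, and with the replicate block 4 were lower, where 44.1% of all genes passed. Groups of libraries did not overlap in 4 of the 8, all above EV, with SPANX KD 86 (all genes: 22.5% above, 22.9% below) and in 3, all above, with SPANX KD 87 (15.2% above, 14% below). SPANX KD 87 lay wholly below SPANX KD 86 in 5 of the 8 and wholly above it in 0 (22.4% below and 22.9% above). Their median log2 fold change was 0.94 with SPANX KD 86 and 0.27 with SPANX KD 87, beside -0.04 and 0 over all genes tested. The 3 calls with SPANX KD 87 fell to 0 without EV replicate 1, SPANX KD 87 replicate 1 or SPANX KD 87 replicate 2, and to 1 without SPANX KD 87 replicate 3. The 2 calls between constructs became 1 without SPANX KD 86 replicate 1 or 2 or SPANX KD 87 replicate 1 or 3. Of all genes, 18.2%, 15.9%, 18.1% and 18.5% passed there, in that order, against 25.5% in the main fit. Both comparisons with EV share the 3 EV libraries.

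**Figure D2:**
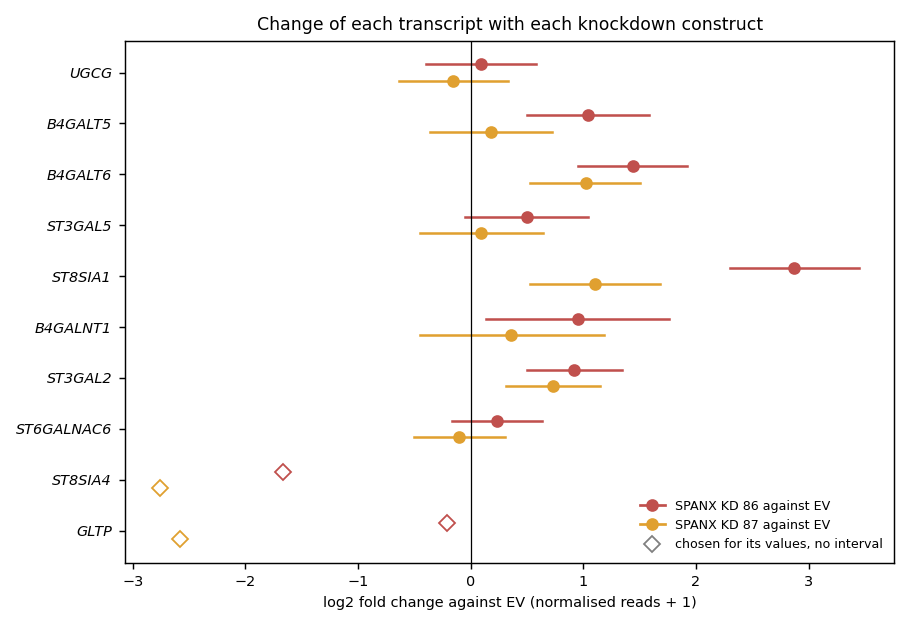
Log2 fold change of each gene against EV (horizontal axis, normalised reads plus 1) with SPANX KD 86 and SPANX KD 87, as limma estimates with 95% intervals for the 8 genes taken by role and open diamonds without intervals for the 2 chosen for their values. B4GALT6, ST8SIA1 and ST3GAL2 lie to the right of 0 with both constructs, and ST8SIA1 is the farthest right with SPANX KD 86 (2.87).

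The polysialyltransferase was low with both constructs and the glycolipid carrier with SPANX KD 87. ST8SIA4 (ENSG00000113532.12, chr5:100806935-100903266) stood at 89.1, 106.3 and 123.1 normalised reads in SPANX KD 86, at 58.9, 41.1 and 48.9 in SPANX KD 87 and at 415.6, 266.7 and 348.2 in EV libraries. Means were 106.2 ± 17.0 in SPANX KD 86, 49.6 ± 8.90 in SPANX KD 87 and 343.5 ± 74.5 in EV libraries (SD, n = 3 each). The 3 groups did not overlap, and SPANX KD 87 was the lowest. The log2 fold change was -1.67 with SPANX KD 86, which is 3.19-fold lower, and -2.76 with SPANX KD 87, which is 6.77-fold lower. Over all settings tried, these values stayed between -1.93 and -1.52 with SPANX KD 86 and between -2.93 and -2.61 with SPANX KD 87. ST8SIA4 lay below EV where ST8SIA1, a sialyltransferase of the same family, lay above it. Their levels over the 9 libraries had a Pearson r of -0.49, which describes libraries that share 3 groups.

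GLTP (ENSG00000139433.9, chr12:109850943-109880488) stood at 576.3, 534.1 and 636.7 normalised reads in SPANX KD 86, at 99.8, 100.2 and 137.4 in SPANX KD 87 and at 879.0, 562.7 and 607.9 in EV libraries. Means were 582.4 ± 51.6 in SPANX KD 86, 112.5 ± 21.6 in SPANX KD 87 and 683.2 ± 171 in EV libraries (SD, n = 3 each). SPANX KD 86 overlapped EV, and every SPANX KD 87 library lay below every other library. The log2 fold change against EV was -0.21 with SPANX KD 86 and -2.58 with SPANX KD 87, which is 5.98-fold lower with SPANX KD 87. SPANX KD 87 stood 5.19-fold lower than SPANX KD 86. With the length trend removed the SPANX KD 86 value was 0.16, while the SPANX KD 87 value ranged from -2.73 to -2.38 over all settings.

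The genes whose levels ran most like those of GLTP over the 9 libraries, among 11243 genes of at least 5 CPM on average, were CBR3, a carbonyl reductase (Pearson r = 0.985), MTMR2, a phosphoinositide phosphatase (r = 0.975), and GNPAT, an enzyme of ether lipid synthesis (r = 0.974). For ST8SIA4 they were TMEM192, a lysosomal membrane protein (r = 0.979), ZNF486, a zinc finger gene (r = 0.97), and CLPTM1L (r = 0.956). These correlations are descriptions over 9 libraries of 3 groups. Between GLTP and ST8SIA4 r was 0.83. Among the other members, the highest correlations were those of B4GALT6 with ST8SIA1 (r = 0.91), B4GALNT1 with B4GALT5 (r = 0.9) and B4GALT6 with ST3GAL2 (r = 0.89).

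Within groups, libraries with the same replicate number deviated together in several of these genes. B4GALNT1 lay above its group mean in replicate 2 by 0.28 on the log2 scale in SPANX KD 86, 0.53 in SPANX KD 87 and 0.88 in EV. B4GALT5 did so by 0.21, 0.36 and 0.45 in the same groups. ST3GAL5 lay above its group mean in replicate 3 by 0.31 in SPANX KD 86, 0.22 in SPANX KD 87 and 0.43 in EV. GLTP had no replicate number that was high in every group, being highest in replicate 3 of SPANX KD 86 and SPANX KD 87 and in replicate 1 of EV. Its replicate 2 lay below the mean of every group, at -0.12 in SPANX KD 86, -0.15 in SPANX KD 87 and -0.25 in EV.

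**Figure D3:**
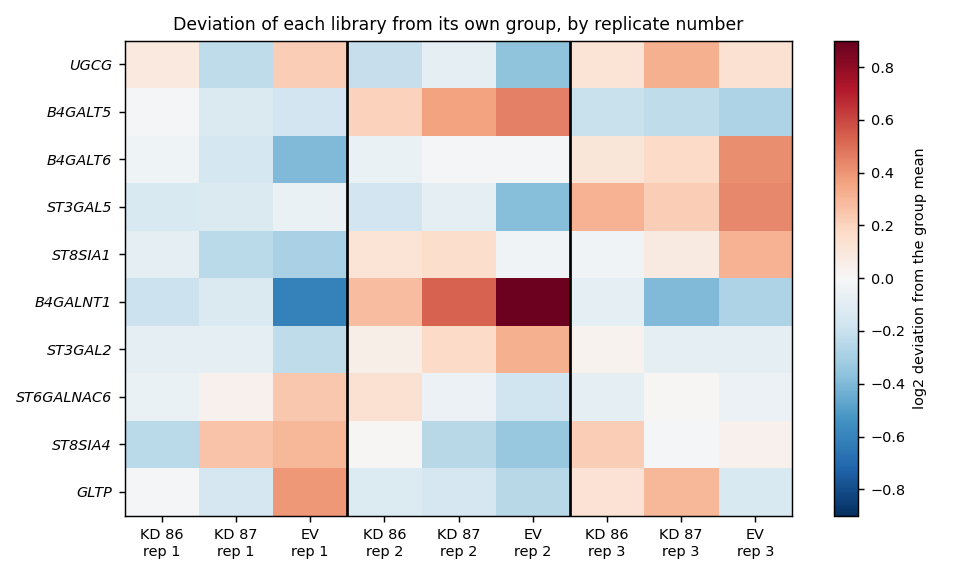
Log2 deviation of each gene from its own group's mean (colour scale), with libraries ordered by replicate number and, within it, as SPANX KD 86, SPANX KD 87 and EV. B4GALNT1 and B4GALT5 are high in all 3 libraries of replicate 2, where B4GALNT1 reaches 0.88 in EV.

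Other genes of the pathway were counted from 7 lists, of which 79 genes were tested. With SPANX KD 86, 30 rose and 4 fell (43% of 79, against 35.6% of all genes tested), and with SPANX KD 87, 15 rose and 1 fell (20.3%, against 10.4%). Between SPANX KD 87 and SPANX KD 86, 8 were higher and 22 lower (38%, against 25.5%). The median log2 fold change of the 79 was 0.42 with SPANX KD 86 and 0.17 with SPANX KD 87, beside -0.04 and 0 over all genes. With the replicate block 33 of the 79 genes passed with SPANX KD 87, where 31.0% of all genes passed. Between the constructs 48 of the 79 passed, where 44.1% of all genes did. The count of 16 of 79 with SPANX KD 87 fell to 7 without EV replicate 1, 10 without EV replicate 3 and 9 without SPANX KD 86 replicate 2. It was 8 without SPANX KD 87 replicate 1 and 8 without SPANX KD 87 replicate 2. In the same order, the share of all genes called fell from 10.4% to 3.77%, 7.67%, 7.7%, 2.66% and 4.4%. Between the constructs, leaving out 1 library gave counts of 20 to 37 of the 79, where 15.9% to 30.3% of all genes passed.

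Among genes that break gangliosides and sphingolipids down, 14 of 20 rose with SPANX KD 86 and 1 fell, with a median log2 fold change of 1.23, and with SPANX KD 87, 6 rose and 0 fell, with a median of 0.62. The 1 that fell was the sialidase NEU3, named after its values were seen (log2 -1.19, limma adjusted p = 0.00822). The list's shares with SPANX KD 86 were 70% up and 5% down, against 18% and 17.6% of all genes tested. With SPANX KD 87 they were 30% and 0%, against 5.92% and 4.43%. SMPD1, the acid sphingomyelinase, averaged 1702 ± 103 normalised reads in SPANX KD 86, 754.5 ± 141 in SPANX KD 87 and 355.3 ± 10.9 in EV libraries (SD, n = 3 each), a rise of 4.77-fold with SPANX KD 86 and 2.1-fold with SPANX KD 87 (limma adjusted p = 5.76e-05 and 0.00707). CTSA, the protective protein of lysosomal sialidase, rose 3.96-fold with SPANX KD 86 (adjusted p = 0.000115) and 2.66-fold with SPANX KD 87 (adjusted p = 0.00328). ARSA, the sulfatase that acts on sulfatide, rose 3.82-fold with SPANX KD 86 and 2.46-fold with SPANX KD 87 (adjusted p = 0.000263 and 0.00808). PSAP, the precursor of the saposin activators, rose 2.74-fold with SPANX KD 86 (adjusted p = 0.000299), and its log2 value with SPANX KD 87 was 0.61 (adjusted p = 0.0532; 0.0127 with the replicate block). SMPD1 and PSAP were lower in SPANX KD 87 than in SPANX KD 86 (adjusted p = 0.0013 and 0.00599). For CTSA and ARSA that difference did not pass (adjusted p = 0.0551 and 0.0651) and passed with the replicate block (0.014 and 0.0127). Without a block, that of CTSA passed without EV replicate 2 (0.0391) and that of ARSA without SPANX KD 86 replicate 1 (0.0284), and both passed with the length trend removed (0.0354 and 0.0266).

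The list of glycolipid transfer and other glycosyltransferases held rises and no falls against EV that passed. Of its 11 genes tested, 7 rose and 0 fell with SPANX KD 86. With SPANX KD 87, 5 rose and 0 fell. Those that rose were 63.6% and 45.5% of the list, against 18% and 5.92% of all genes tested. A4GALT, which makes globotriaosylceramide, averaged 957 ± 263 normalised reads in SPANX KD 86, 390 ± 125 in SPANX KD 87 and 133.3 ± 39.4 in EV libraries (SD, n = 3 each), a rise of 7.15-fold with SPANX KD 86 and 2.91-fold with SPANX KD 87 (limma adjusted p = 0.000189 and 0.0137). B3GALT4, which makes GM1 and GD1b and so acts just after B4GALNT1, rose 3.56-fold with SPANX KD 86 and 1.9-fold with SPANX KD 87 (adjusted p = 0.000578 and 0.0441). B3GNT5, which starts the lacto series, rose 4.41-fold with SPANX KD 86 and 2.49-fold with SPANX KD 87 (adjusted p = 0.00139 and 0.0386), and its log2 difference of -0.82 between SPANX KD 87 and SPANX KD 86 did not pass (adjusted p = 0.112) but passed with the replicate block (0.00397) and, at -1.16, without SPANX KD 86 replicate 1 (0.0407). UGT8, the galactosylceramide synthase, rose 2.1-fold with SPANX KD 86 (adjusted p = 0.00883), and its log2 value with SPANX KD 87 was -0.33 (adjusted p = 0.432). The remaining genes that rose with SPANX KD 87, named after their values were seen, were B4GALT1 (log2 0.98, adjusted p = 0.00804) and PLEKHA8, a glycolipid transfer protein (log2 0.75, adjusted p = 0.0314). Without EV replicate 1 the SPANX KD 87 calls of A4GALT (adjusted p = 0.0625), B3GALT4 (0.0909) and B3GNT5 (0.143) were lost. That of B3GALT4 was lost in each of the 9 fits without 1 library (adjusted p up to 0.174), and that of B3GNT5 also without SPANX KD 86 replicate 2 (0.0594) or SPANX KD 87 replicate 1 (0.106), 2 (0.0879) or 3 (0.0896).

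The other sialyltransferases moved in both directions. Of 8 tested, 2 rose and 2 fell (ST3GAL4 and ST3GAL6, ST3GAL6 named after its values were seen) with SPANX KD 86. With SPANX KD 87, 1 rose and 0 fell. The shares called were 50% and 12.5%, against 35.6% and 10.4% of all genes tested. ST6GAL1, which sialylates N-glycans, averaged 1996 ± 470 normalised reads in SPANX KD 86, 348.4 ± 59.8 in SPANX KD 87 and 282 ± 94.1 in EV libraries (SD, n = 3 each), and rose 7.18-fold with SPANX KD 86 (limma adjusted p = 0.000105). ST3GAL1, which caps O-glycans, rose 4.41-fold with SPANX KD 86 (adjusted p = 0.000565) and its log2 value with SPANX KD 87 was 0.65 (adjusted p = 0.185; 0.0452 with the replicate block). Both were lower in SPANX KD 87 than in SPANX KD 86, by log2 differences of -2.50 and -1.49 (adjusted p = 0.000303 and 0.00463). ST3GAL4 and ST3GAL3, which cap N-acetyllactosamine chains, ran the other way, with log2 differences of 1.13 and 1.64 between SPANX KD 87 and SPANX KD 86 (adjusted p = 0.00201 and 0.00291). Against EV, ST3GAL4 fell by 0.56 on the log2 scale with SPANX KD 86 (adjusted p = 0.0405), a call lost in 7 of the 9 fits without 1 library (adjusted p up to 0.138 without SPANX KD 86 replicate 1), and with SPANX KD 87 its value was 0.57 (adjusted p = 0.083; 0.0182 with the replicate block). ST3GAL3 was the 1 sialyltransferase of this list that rose with SPANX KD 87 against EV, 2.13-fold (adjusted p = 0.0411), a call lost without EV replicate 1 (adjusted p = 0.146), SPANX KD 86 replicate 2 (0.0597) or 3 (0.0535) and SPANX KD 87 replicate 1 (0.176) or 2 (0.115). ST8SIA5 and ST6GALNAC2 had values above 0 only in the SPANX KD 86 and EV files and were not tested, since a gene listed at 0 through a set of files may have been filtered out there. ST8SIA5, another ganglioside sialyltransferase, stood at 114.3, 101 and 56.3 normalised reads in SPANX KD 86 and at 7.78, 5.48 and 2.16 in EV libraries. ST6GALNAC2 stood at 15.5, 14.1 and 25.8 in SPANX KD 86 and at 2.22, 1.83 and 2.16 in EV libraries.

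Of 13 genes of ceramide synthesis tested, 3 rose and 1 fell with SPANX KD 86, and 0 rose and 1 fell with SPANX KD 87. Between the constructs, 1 was higher and 6 were lower in SPANX KD 87 than in SPANX KD 86. The shares called were 30.8%, 7.69% and 53.8%, against 35.6%, 10.4% and 25.5% of all genes tested. SPTLC1, a subunit of serine palmitoyltransferase, the first enzyme of sphingolipid synthesis, stood at 1351, 1109 and 1059 normalised reads in SPANX KD 86, at 253.3, 266.3 and 265.7 in SPANX KD 87 and at 756.7, 875.1 and 851.5 in EV libraries. Every SPANX KD 87 library lay below every other library, and every SPANX KD 86 library above. SPTLC1 rose 1.41-fold with SPANX KD 86 (limma adjusted p = 0.0433), a call lost in 8 of the 9 fits without 1 library (adjusted p up to 0.131 without SPANX KD 86 replicate 1). It fell 3.15-fold with SPANX KD 87 (limma adjusted p = 0.000863), and SPANX KD 87 stood 4.44-fold lower than SPANX KD 86 (adjusted p = 9.08e-05). SPTLC3, an alternative catalytic subunit of the same enzyme, fell 2.45-fold with SPANX KD 86 (adjusted p = 0.00372) and was 3.22-fold higher in SPANX KD 87 than in SPANX KD 86 (adjusted p = 0.00128). KDSR, the next enzyme of the pathway, rose 1.69-fold with SPANX KD 86 (adjusted p = 0.00416). CERS5, another ceramide synthase, named after its values were seen, was the remaining gene that rose (log2 0.67, adjusted p = 0.0195). CERS4, a ceramide synthase, was lower in SPANX KD 87 than in SPANX KD 86 by a log2 difference of -2.15 (adjusted p = 0.00862), at means of 6.30 ± 4.60 and 28.8 ± 9.30 normalised reads (SD, n = 3 each). Against EV, at 18.7 ± 2.73, the SPANX KD 87 value of CERS4 was -1.60 on the log2 scale (adjusted p = 0.0605; 0.0239 with the replicate block).

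**Figure D4:**
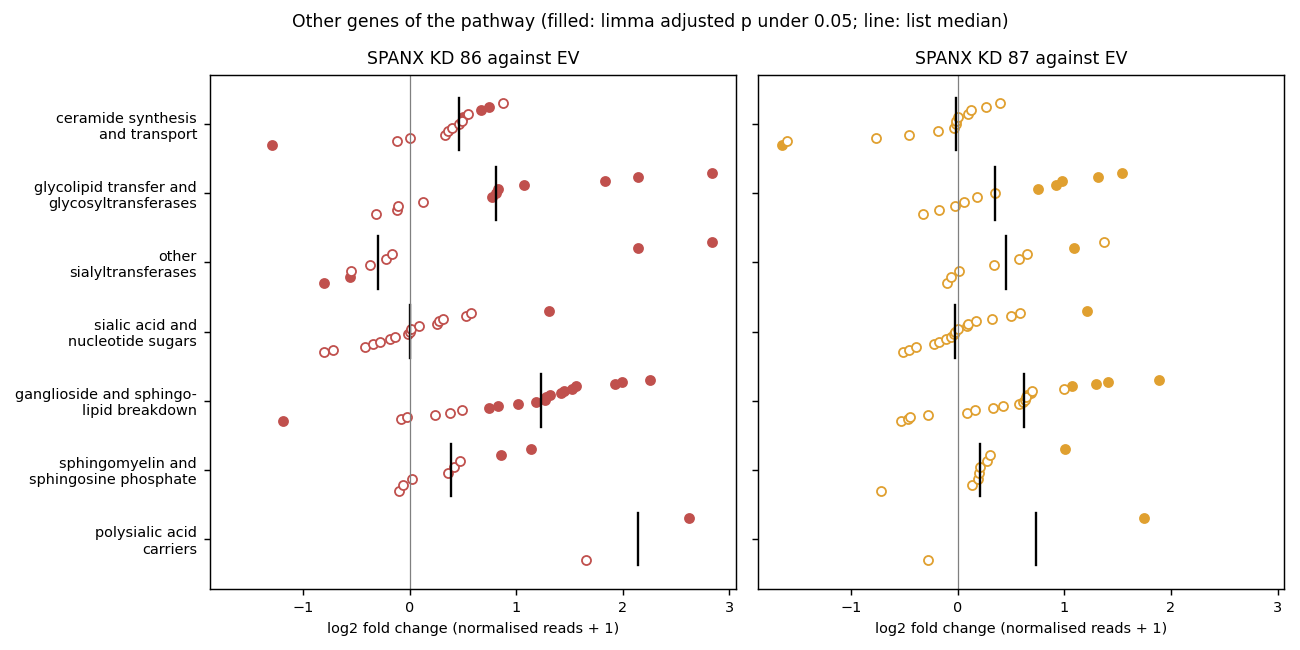
Log2 fold change against EV (horizontal axes, normalised reads plus 1) of the 79 other pathway genes by list, with SPANX KD 86 on the left and SPANX KD 87 on the right; filled points passed at a limma adjusted p under 0.05 and vertical lines are list medians. The breakdown list has its median at 1.23 with SPANX KD 86 and 0.62 with SPANX KD 87, and the sialic acid and nucleotide sugar list at 0 and -0.03.

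The supply of sialic acid and nucleotide sugars showed few changes. Of 17 genes tested, 1 rose with each construct and 0 fell, with medians of 0 with SPANX KD 86 and -0.03 with SPANX KD 87. The share called was 5.88% with each, against 35.6% of all genes tested with SPANX KD 86 and 10.4% with SPANX KD 87. UGP2, which makes UDP-glucose, rose 2.47-fold with SPANX KD 86 (limma adjusted p = 0.00256), and SIAE, which removes acetyl groups from sialic acids, rose 2.32-fold with SPANX KD 87 (adjusted p = 0.00521). GNE, the first enzyme of sialic acid synthesis, was lower in SPANX KD 87 than in SPANX KD 86 by a log2 difference of -0.81 (adjusted p = 0.0177), a call lost without SPANX KD 86 replicate 2 (0.0605) or 3 (0.067) or SPANX KD 87 replicate 3 (0.0736). With SPANX KD 86 against EV the log2 value of GNE was 0.58 (adjusted p = 0.0518; 0.0182 with the replicate block). GALT, of galactose metabolism, was higher in SPANX KD 87 than in SPANX KD 86 by 1.12 (adjusted p = 0.044), a call lost in 6 of the 9 fits without 1 library (adjusted p up to 0.146 without SPANX KD 86 replicate 1). Its SPANX KD 86 value against EV was -0.80 (adjusted p = 0.107; 0.00911 with the replicate block).

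In the sphingomyelin and sphingosine phosphate branches, 2 of 8 genes rose and 0 fell with SPANX KD 86. With SPANX KD 87, 1 rose and 0 fell. The shares called were 25% and 12.5%, against 35.6% and 10.4% of all genes tested. SAMD8, a ceramide phosphoethanolamine synthase, rose 2.2-fold with SPANX KD 86 (limma adjusted p = 0.0014), and SGMS1, a sphingomyelin synthase, rose 2.01-fold with SPANX KD 87 (adjusted p = 0.00926), a call lost without SPANX KD 87 replicate 1 (0.0524). SGPL1, the sphingosine phosphate lyase, rose 1.81-fold with SPANX KD 86 (adjusted p = 0.024), a call lost without EV replicate 1 (0.0667) or 3 (0.0802) or SPANX KD 86 replicate 2 (0.09) or 3 (0.053), and with the length trend removed (0.0794). Between SPANX KD 87 and SPANX KD 86 the log2 difference of SGPL1 was -0.56 (adjusted p = 0.133; 0.0339 with the replicate block).

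Carriers of polysialic acid, the product of ST8SIA4, were measured as well. NRP2, neuropilin 2, averaged 6377 ± 2040 normalised reads in SPANX KD 86, 3485 ± 1070 in SPANX KD 87 and 1126 ± 675 in EV libraries (SD, n = 3 each), a rise of 6.15-fold with SPANX KD 86 and 3.36-fold with SPANX KD 87 (limma adjusted p = 0.00113 and 0.0248). The SPANX KD 87 call of NRP2 was lost without EV replicate 1 (0.0968) or 3 (0.0622) or SPANX KD 87 replicate 1 (0.106) or 2 (0.0906). Its log2 difference between SPANX KD 87 and SPANX KD 86 was -0.87 (adjusted p = 0.15; 0.015 with the replicate block). CADM1, a cell adhesion molecule, stood at 1518, 714.2 and 363.5 normalised reads in SPANX KD 86, at 415.1, 206.4 and 79.4 in SPANX KD 87 and at 310.0, 266.7 and 148.7 in EV libraries. Its log2 value with SPANX KD 86 against EV was 1.66 (adjusted p = 0.0555; 0.000147 with the replicate block). CADM1 was lower in SPANX KD 87 than in SPANX KD 86 (adjusted p = 0.0394), a call lost in 5 of the 9 fits without 1 library (adjusted p up to 0.147 without SPANX KD 86 replicate 1). NCAM1, the best known carrier, was above 0 only in the SPANX KD 87 files, at 31.5, 42.8 and 14.2 normalised reads, and was not tested.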

How the data were processed

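RNA of 9 libraries was sequenced from transcript 3' ends. STAR, featureCounts, Subread, edgeR and hg19 are named in the submitters' processing notes, with no versions or order. The deposited values are a score: reads scaled per library by the authors and rounded to whole numbers. Each file lists 60420 gene IDs, of which 45742 are at 0 in all libraries. Values above 0 are held only by the SPANX KD 87 files for 453 IDs and only by the others for 400, so a 0 through a set may be a filter, and the 13825 IDs above 0 in both sets were tested. All 10 members were.

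The value of 1 read in each library was read off the steps between its values, giving 11310675 to 15563422 reads. At least 98.24% of values above 0 equal a whole number of reads times that value, rounded. Where 1 read was worth less than 1, as in EV replicate 2 (0.902), that share had to be 100%, so it was no check there. Reads were rescaled with the TMM formula (trimming 30% of log ratios and 5% of abundances). The test was limma 3.58.1 in R 4.3.3 on log2(value + 1), which understates changes of low genes, with a variance trend, 3 groups and 6 residual degrees of freedom, two-sided, Benjamini-Hochberg adjusted over all 13825 genes at a threshold of 0.05. It was run on simulated libraries that were independent of each other, which does not cover deviations shared by replicate number. Nothing in the labels says that replicates are separate cultures, so p-values reflect the scatter of these libraries, possibly technical.

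The members and lists were chosen with earlier results of these data known. The rule for named genes takes the 10 members, SPANXC and SPANXD, up to 4 genes of each list with the smallest adjusted p among those that passed, and the 3 genes most like GLTP and ST8SIA4. Over 13750 genes, deviations from group means correlated with r of 0.216 to 0.726 for the 9 pairs of libraries with the same replicate number. For other pairs r was -0.646 to 0.139. The numbers were therefore taken to pair the libraries, and block values are given where they change a call. The main fit and the fits without 1 library had no block. With the block, 55.3% of all genes passed with SPANX KD 86, 31.0% with SPANX KD 87 and 44.1% between the constructs. Without it these shares were 35.6%, 10.4% and 25.5%. No library was left out with the block, so whether calls lost on leaving out 1 library hold with pairing was not tested. With the block added to the main fit, 0 single-gene calls were lost. Transcript lengths and gene positions came from GENCODE release 29 (GRCh38), matched by gene ID; promoters came from RefSeq. Alternatives were other scalings, pseudocounts, filters, weights, a length trend (a spline of 4 degrees of freedom, over the 99.6% of genes with a length), the block, fits of 2 groups and leaving out each library.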

Additional observations from a re-analysis of the deposited data

Results flagged for a closer look

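Of the 8 genes taken by role, 2 differed between the constructs by the test of the difference itself, a share near the 25.5% of all genes tested that did. ST8SIA1 was lower in SPANX KD 87 than in SPANX KD 86, with a log2 difference of -1.77 (limma adjusted p = 0.00102), and so was B4GALT5, with -0.86 (adjusted p = 0.026). In both, all 3 SPANX KD 87 libraries lay below all 3 SPANX KD 86 libraries, as 22.4% of all genes tested did.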

How the results depend on the processing

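Of 126 counts of called genes under 21 alternatives, 105 stayed within 1.5 times the count given in the report. The replicate block raised the genes of the lists called with SPANX KD 87 to 33 of 79 and those called between the constructs to 48 of 79. Members called between the constructs rose to 4 of 8. The share of all genes called was 31.0% with SPANX KD 87 and 44.1% between the constructs. With the length trend removed in the same fit these counts were 31, 50 and 5, and the shares were 34.9% and 47.9% of all genes. With only the 2 groups compared in the fit, members called with SPANX KD 87 fell to 1 of 8 and list genes to 10 of 79. Of all genes, 6.19% were called there. Leaving out 1 library gave 4 to 5 members with SPANX KD 86, 0 to 3 with SPANX KD 87 and 1 to 2 between the constructs. List genes were 28 to 39, 7 to 16 and 20 to 37 of 79. Of all genes, 22.1% to 43.5%, 2.66% to 18.5% and 15.9% to 30.3% were called in those fits. Over 111 single-gene values the block gained 17 calls, each given in the report, and changed no other call. Signs turned only in values that passed in neither fit, or that were not tested. With the length trend removed, with or without the block, GLTP with SPANX KD 86 was 0.16, UGCG with SPANX KD 86 -0.16, ST3GAL2 between the constructs 0.02 and SAMD8 with SPANX KD 87 -0.03. Without 1 library, the log2 fold change with SPANX KD 86 ran from -0.09 to 0.20 for UGCG. With SPANX KD 87 it ran from -0.10 to 0.31 for ST3GAL5, from -0.19 to 0.02 for ST6GALNAC6, from -0.84 to 0.34 for CADM1 and from -0.07 to 0.25 for UGP2. The cause of these shifts was not tested. Depth limits ST8SIA1, with as few as 17 reads in a library.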
